A study of Mus musculus with 20 samples.

Results

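Wild-type ileum was compared with wild-type macrophages in the 10 libraries of Gpr35+/+ mice, of 20 libraries in the series. The members were taken by their labels: 5 libraries of wild-type ileum, the stretch of small intestine next to the colon, and 5 of wild-type macrophages. The study's methods describe the macrophages as derived from bone marrow, and no treatment is named for either tissue. The remaining libraries came from Gpr35-/- mice, which lack the G protein-coupled receptor GPR35. They are used here only where they show what the wild-type libraries hold, and for a repeat of the comparison among the alternatives. Mice were young adults of the C57BL/6 strain, matched for age and gender, and wild-type animals were littermates of the knockouts. How the macrophages were grown is not given in the sources used here, and for them nothing says that each library came from its own animal, whereas the study counts its ileum replicates as mice. The p-values therefore measure the spread between these libraries, which for macrophages may be technical.

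The wall of the ileum is lined by a single layer of epithelium that is renewed from crypts. Its absorptive cells, the enterocytes, carry a brush border of microvilli and take up bile acids, fat, sugars and amino acids, and goblet, Paneth, enteroendocrine and tuft cells secrete mucus, antimicrobial peptides, hormones and alarm signals. Macrophages are phagocytes of the myeloid lineage that engulf and digest particles, sense microbes and recycle iron and lipid. The comparison sets a tissue of many cell types against cells cultured to be 1 type. In such bulk RNA fewer cells of a type and less RNA per cell cannot be told apart.

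The authors deposited 1 table per tissue, scaled on its own, of FPKM, in which the reads of a gene are divided by its length and by those of the library. The difference between the tissues and the difference between the tables cannot be told apart. For a common scale the FPKM of each library was brought to 1 common sum over the rows that both tables hold, and these values are called TPM, as is usual for FPKM rescaled in this way. Differences are of log2(TPM + 0.5), ileum minus macrophages, which understates the change of low genes. They were tested with limma-treat against a bound of 2-fold, with Benjamini-Hochberg adjustment over all 13072 genes tested. Genes past the test are called higher in ileum or in macrophages, genes whose 95% confidence interval lay wholly inside 2-fold are called within 2-fold, and the rest are unresolved. Total reads are not known. Relative to the first ileum library the depth was 1 to 1.86 in ileum and 1.70 to 2.09 in macrophages, so that low values are less certain in ileum. Spearman's rank correlation over genes was 0.97 to 0.98 between ileum libraries, 0.987 to 0.992 between macrophage libraries and 0.48 to 0.53 between a library of each. These correlations are across genes, which are not independent replicates.

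Some abundant genes were listed at 0 in every wild-type library of 1 tissue, and 172 rows that otherwise passed the filter were left out of the test for this reason. Ileum was listed at 0 for Anpep, an aminopeptidase of the brush border, Fabp2, the intestinal fatty acid binding protein, and Apoa1, the main apolipoprotein of high density lipoprotein. Macrophages were listed at 0 for the ferritin chains Fth1 and Ftl1, the lysosomal genes Ctsb, Ctsd and Psap, and Lyz2, the lysozyme of myeloid cells. The translation factor Eef1a1 was listed at 0 in wild-type and at 3725 to 3834 FPKM in knockout macrophages. Whether these values mean absent RNA or come from the processing was not tested, and no fold is given for them.

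Ileum and macrophages differed by more than 2-fold at most genes that the test resolved, with 2201 genes (16.8%) higher in ileum and 5080 (38.9%) higher in macrophages. A further 3173 genes (24.3%) were within 2-fold and 2618 were unresolved. The libraries of the tissues did not overlap for 2199 of the genes higher in ileum and 5078 of those higher in macrophages. A call past 2-fold nearly implies this, so these counts add no support to the calls. The count without overlap over all genes tested is not given. Differences of over 100-fold were found for 354 genes higher in ileum and 124 higher in macrophages. The division by the total put the median gene at -0.90 on the log2 scale, below 0. When libraries were scaled by the median of ratios instead, which centres the genes at 0.04, 3221 genes (24.6%) were higher in ileum, 2406 (18.4%) higher in macrophages and 4794 (36.6%) within 2-fold. The scaling thus took the share of calls that were higher in ileum from 30.2% to 57.2%. The 2201 and the 2406 genes kept their call under both scalings, and no gene changed sides. Counts for gene groups are therefore given under both, first by TPM and then by the median of ratios, and small differences are read against the median gene.

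**Figure D1:**
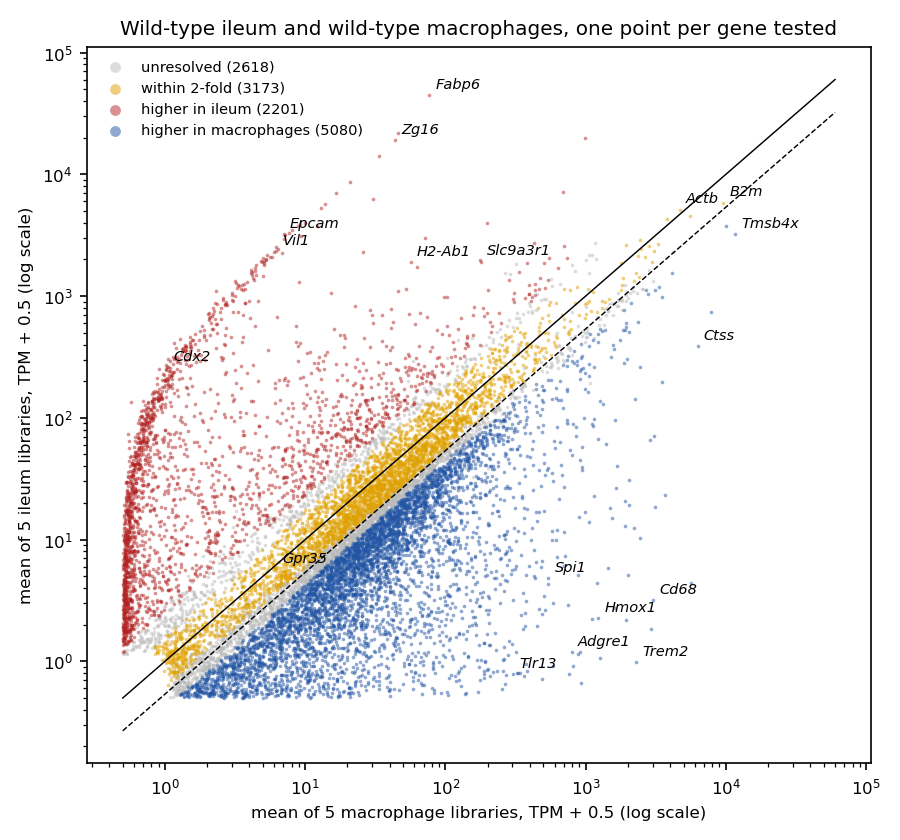
Mean TPM + 0.5 of the 5 macrophage libraries (x axis, log scale) and of the 5 ileum libraries (y axis, log scale) for the 13072 genes tested, coloured by call, with lines at equality (solid) and at the median difference (dashed). Part of the genes higher in ileum, 286 of 639 at 100 TPM or more, form a narrow band near 0.247% of the ileum level at the upper left, which holds Fabp6, Zg16, Epcam, Vil1 and Cdx2.

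The gene with the largest difference towards ileum was Fabp6, the cytosolic bile acid binding protein of ileal enterocytes, on chromosome 11 from 43596049 to 43601540 of GRCm38. It was at 48494, 53263, 17042, 54743 and 49673 TPM in the 5 ileum libraries and at 35.3, 50.1, 62.5, 145 and 89.6 TPM in the 5 macrophage libraries. It was the most abundant gene of the ileum, with the third ileum library far below the other 4, and the difference was 9.24 (standard error 0.40, adjusted p = 1.7e-09). The other 9 genes with the largest differences towards ileum were 2200002D01Rik, Reg3b, Epcam, Zg16, Guca2b, Phgr1, Tff3, Krt20 and Spink1, at 8.87 to 8.96. They include an antimicrobial lectin (Reg3b), goblet cell products (Zg16 and Tff3), an epithelial adhesion molecule (Epcam) and a peptide hormone that controls fluid secretion (Guca2b).

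Towards macrophages the largest difference was that of Trem2, a lipid-sensing receptor of phagocytes, on chromosome 17 from 48346401 to 48354147. It was at 0, 2.25, 0, 0.0622 and 0.130 TPM in ileum and at 2256, 2304, 2216, 2364 and 2236 TPM in macrophages, with no overlap and a difference of -11.56 (standard error 0.41, adjusted p = 2.8e-10). Ileum library 2 held more Trem2 than the other 4 ileum libraries together. S100a4, Spp1, Clec4d, Adam8, Lpl, Cd68, Npy, S100a9 and C3ar1 followed, at -10.89 to -9.85. Of these Spp1 encodes the secreted matrix protein osteopontin, Lpl lipoprotein lipase, Clec4d a lectin receptor for microbes, and Cd68 a late endosome protein used as a macrophage marker. Npy, a neuropeptide, was at 952, 741, 773, 692 and 658 TPM in macrophages, and all 5 libraries lay above the highest ileum library.

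The markers of the labelled cells were checked before the programmes were described. The defining macrophage markers Adgre1 (F4/80), Csf1r (the receptor for M-CSF) and Cd68 averaged 799, 1212 and 3035 TPM in macrophages against 0.698, 3.94 and 2.70 TPM in ileum. The defining epithelial markers Epcam, Vil1 and Cdh1 averaged 3206, 2353 and 382 TPM in ileum. Markers of the rest of the gut wall were low in ileum. Des and Actg2, of smooth muscle, averaged 6.78 and 6.52 TPM, Col1a1 and Col3a1, the fibrillar collagens of fibroblasts, 0.776 and 1.77 TPM, and Pecam1, of endothelium, 1.57 TPM. Summed over its list, smooth muscle came to 18.5 to 88.5 TPM in ileum, fibroblasts and matrix to 81.3 to 158 TPM, of which Fbln1 gave most (89.2 TPM), and neurons and glia, with the neuropeptide gene Vip and the glial gene Sox10 below the filter, to 2.85 to 5.58 TPM. Epithelial markers thus far exceeded those of muscle, fibroblasts, endothelium and nerves in tissue labelled as ileum. Macrophage libraries held genes of neutrophils and their precursors. S100a9 was at 576, 1120.3, 807, 619 and 1284 TPM, Ngp at 114, 222, 156, 127 and 226 TPM and Ltf at 28.3, 58.4, 37.5, 32.2 and 51.2 TPM, and libraries 2 and 5 were the highest of the 5 for all 3. Summed, the list of blood cells other than macrophages came to 1302 to 2930.0 TPM in macrophages and 9.73 to 17.2 TPM in ileum, where S100a8, Mpo, Elane and Camp were listed at 0. The part of such cells in the macrophage results was not tested.

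**Figure D2:**
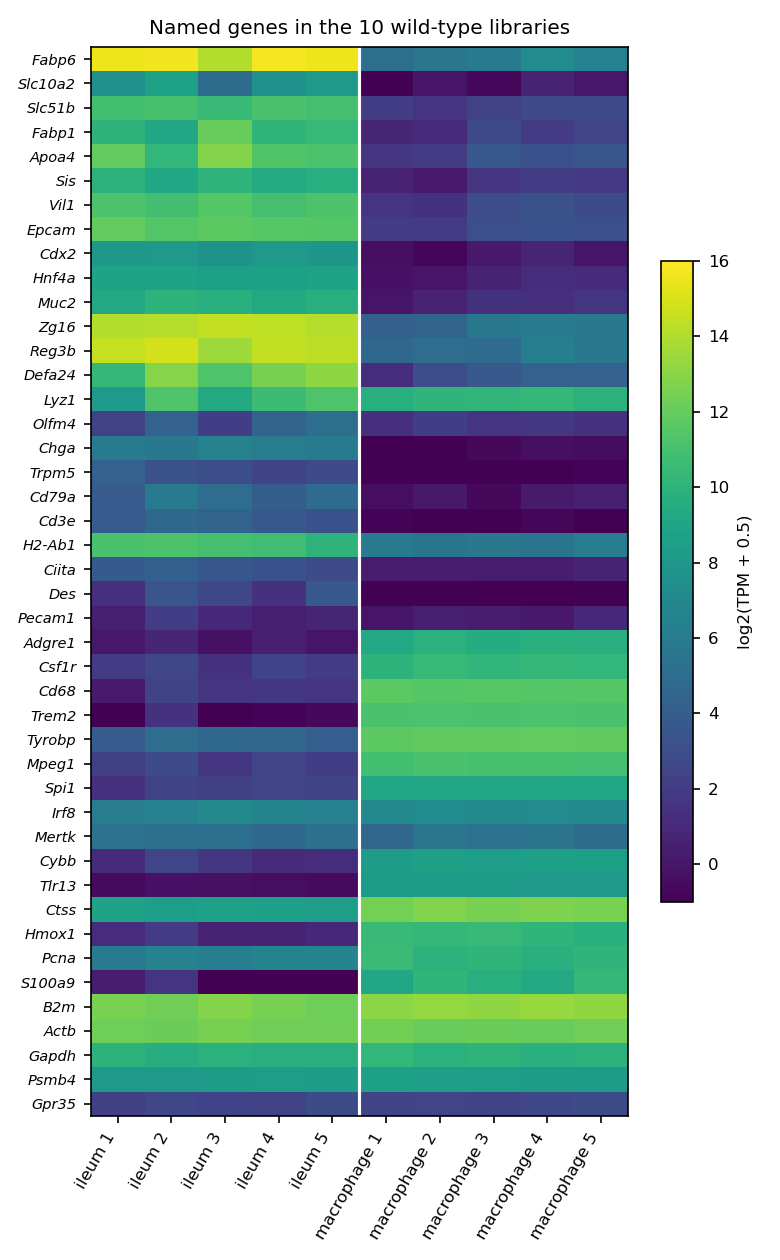
Expression of 44 named genes as log2(TPM + 0.5) (colour) in the 5 ileum and 5 macrophage libraries (columns), genes in rows ordered by the cell type or function they mark. Epithelial genes at the top are bright in ileum, macrophage genes below are bright in macrophages, and B2m, Actb, Gapdh, Psmb4 and Gpr35 at the bottom were within 2-fold by TPM.

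Genes for the uptake of bile acids and sugar and genes of the brush border were higher in ileum. All 10 tested genes of ileal bile acid handling, all 15 brush border hydrolases, all 14 genes of the microvillus scaffold and all 9 of sugar transport and fructose breakdown were higher in ileum under both scalings, against 16.8% and 24.6% of all genes. Their median differences were 7.51, 8.42, 8.02 and 6.71. Slc10a2, the transporter that takes bile acids from the lumen, was at 188, 423, 31.2, 184 and 292 TPM in ileum and at 0.486 TPM on average in macrophages (difference 7.52, standard error 0.62, adjusted p = 1.4e-06). Slc51a and Slc51b, the subunits of the basolateral exporter, averaged 1715 and 1924 TPM. Fgf15, the hormone through which the ileum restrains bile acid synthesis in liver, averaged 156 TPM, and its receptor-activated regulator Nr1h4 (FXR) 89.7 TPM.

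Among the hydrolases, Sis (sucrase-isomaltase) was at 992, 591, 1086, 696 and 839 TPM in ileum and at 1.03, 0.699, 2.66, 3.46 and 3.00 TPM in macrophages. Every ileum library was over 100 times every macrophage library. Naaladl1, a peptidase, was the most abundant of them (2954 TPM), and Mep1b, a metalloprotease subunit, averaged 1864 TPM. Within the microvillus list 2 members had a higher level in macrophages than the rest. Slc9a3r1 (NHERF1) and Ezr (ezrin), which tie membrane proteins to actin, were at 159.9, 187, 188, 189 and 171 and at 49.4, 48.2, 57.2, 53.4 and 52.0 TPM in macrophages, so that their differences were only 3.40 and 4.43 against 8.73 for Vil1 (villin) and 8.81 for Cdhr5, a microvillar cadherin.

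The lipid list was split by function. Of 16 tested genes 13 were higher in ileum and 3 in macrophages, under both scalings. All genes gave 16.8% and 38.9% by TPM, and 24.6% and 18.4% by the median of ratios. The ileal members serve the packing of fat into lipoproteins, such as Apoa4 (3489 TPM), Apob (529.8 TPM), Mttp (912 TPM), which loads lipid onto ApoB, and Npc1l1 (676 TPM), which takes up cholesterol. The 3 macrophage members were Plin2, the coat protein of lipid droplets, Cd36, a receptor for fatty acids and oxidized lipoproteins, and Scarb1, the receptor for high density lipoprotein. Plin2 was at 70.2, 61.2, 73.1, 62.9 and 59.0 TPM in ileum and at 2926, 2804, 2752, 2821 and 3079 TPM in macrophages (-5.45, standard error 0.07, adjusted p = 7.1e-13). Cd36 averaged 14.9 and 890.2 TPM in ileum and macrophages. The spread between libraries was small next to these differences.

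Amino acid transporters did not form 1 programme. Of 16 tested, 7 were higher in ileum under either scaling, among them Slc6a19, the main carrier of neutral amino acids (692 and 3.11 TPM), Slc15a1, the carrier of dipeptides (594 and 1.81 TPM), and the cystine transporter subunit Slc7a9 (464 and 1.01 TPM). Slc38a1, Slc38a2 and Slc7a5 were higher in macrophages by TPM, and of these only Slc38a1 by the median of ratios. Among all genes 16.8% were higher in ileum and 38.9% in macrophages by TPM, and 24.6% and 18.4% by the median of ratios. Slc3a2, the common heavy chain of several transporters, was at 226, 169, 307, 242 and 258 TPM in ileum and at 526, 444, 502, 493 and 472 TPM in macrophages and was unresolved by TPM and within 2-fold by the median of ratios.

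Levels of ileal genes also varied between the ileum libraries, and did so in groups. In library 3 Fabp6 and Slc10a2 were the lowest of the 5, whereas Fabp1, the liver-type fatty acid binding protein, was at 1012, 591, 4203, 1132 and 1313 TPM and Apoa4 at 3842, 1230.1, 7384, 2646 and 2342 TPM, both highest in library 3. The facilitative sugar carrier Slc2a2 was also highest there (64.3, 30.0, 183, 74.4 and 79.2 TPM). Paneth cell genes varied most. Defa24, an α-defensin, was at 1303, 7724, 2576, 5943 and 9032 TPM and Lyz1, the lysozyme of Paneth cells, at 285, 2596, 630.0, 1575 and 2609.8 TPM, with libraries 1 and 3 the lowest for both. Olfm4, a gene of crypt stem cells, was lowest in the same libraries (4.48, 20.3, 3.97, 20.6 and 34.4 TPM). Tuft cell genes went another way, and Trpm5, their cation channel, was at 20.05, 8.72, 7.92, 5.03 and 7.37 TPM, highest in library 1. The median SD of log2 over the Paneth list was 1.18 and over epithelial adhesion genes 0.19, against 0.20 for the 8353 genes at 5 TPM or more in ileum and 0.09 for the 9501 such genes in macrophages.

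Secretory lineages were present in ileum at very different levels. The goblet cell products Zg16, a lectin that binds bacteria, and Tff3, a trefoil peptide, averaged 19021 ± 2406 and 14020.5 ± 1289 TPM (SD, n = 5), above the gel-forming mucin Muc2 at 802 ± 171 TPM. Of 12 goblet genes tested 11 were higher in ileum by TPM and all 12 by the median of ratios, and the exception, the goblet cell factor Creb3l1, averaged 18.4 and 12.5 TPM in ileum and macrophages. Of 14 Paneth and antimicrobial genes 12 were higher in ileum, led by the C-type lectins Reg3b and Reg3g at 21698 and 8674 TPM. Lyz1 was unresolved under both scalings, and its level of 826, 1089.9, 1164, 1259 and 979.7 TPM in macrophages overlapped that in ileum. Lyz1 and Lyz2 are near-identical copies, Lyz2 was listed at 0 in macrophages, and how reads were split between them is not known. The α-defensins also share sequence and are uncertain one by one. All 15 tested hormone-cell genes were higher in ileum, with the peptide genes Sct (secretin), Nts (neurotensin) and Pyy at 363, 245 and 136 TPM. Tuft and stem cell genes were low, Dclk1 at 3.85 TPM and Lgr5, which was not tested, at 0.516 TPM. Other stem cell genes were higher, with Axin2 at 33.4 TPM and Olfm4 at 16.7 TPM. Summed, the lists came to 21.1 to 79.8 TPM and 51.5 to 94.4 TPM in ileum. By TPM 4 of 6 and 5 of 7 tested were higher in ileum. Over all genes 16.8% were higher in ileum by TPM and 24.6% by the median of ratios.

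The regulators of each programme were at opposite ends. All 19 tested intestinal transcription factors were higher in ileum under both scalings (median 5.59), against 16.8% and 24.6% of all genes. Cdx2, the homeobox factor that sets intestinal identity, was at 268, 290.1, 205, 287 and 251.5 TPM in ileum and at 0.318, 0.0990, 0.602, 1.20 and 0.467 TPM in macrophages, and Hnf4a, a nuclear receptor of absorptive epithelium, at 465, 441, 406, 410.2 and 459.9 TPM and 0.401, 0.463, 1.11, 1.86 and 1.56 TPM. Of 17 myeloid factors 12 were higher in macrophages by TPM and 10 by the median of ratios, against 38.9% and 18.4% of all genes. Spi1 (PU.1), the ETS factor that defines the myeloid lineage, was at 2.24, 5.06, 4.15, 5.33 and 4.99 TPM in ileum and at 518, 538, 544, 552 and 548 TPM in macrophages (-6.85, standard error 0.18, adjusted p = 1.8e-11). Other factors of the list did not follow it. Irf8 was at 74.3, 92.9, 126, 96.2 and 82.9 TPM in ileum and at 129, 151, 141, 145 and 142 TPM in macrophages and was within 2-fold under both scalings. Nr1h3 (LXRα), a sterol sensor, averaged 67.3 and 29.4 TPM in ileum and macrophages and was higher in ileum under both (adjusted p = 0.028 by TPM, a call lost without ileum library 3 or 5 or macrophage library 1 or 3, where it was 0.053 to 0.071), and Maf at 239.9 and 108 TPM was so by the median of ratios alone.

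The promoters of the called genes were searched for short binding motifs of such factors on both strands, in RefSeq windows of 300 bases around the start site on GRCm38.p6, which covered 78.2% of the genes tested. CAAAGTCCA, bound by HNF4 factors, was in 1.45% of windows of genes higher in ileum, 0.238% of those higher in macrophages and 0.475% of all 32851 windows. GAGGAAGT, bound by PU.1, was in 4.02% of windows of genes higher in macrophages, 2.52% of those higher in ileum and 3.2% of all. CCGGAAGT, the site of widely expressed ETS factors, which shares its last 6 letters with it, was in 10.2% of windows of genes within 2-fold, 8.12% of macrophage and 2.1% of ileum windows and 3.89% of all. GTTAAT, of HNF1 factors, was in 6.78%, 4.3% and 3.61% of windows of ileum, macrophage and within 2-fold genes and in 7.1% of all. TTTATGG, of CDX2, was in 2.38%, 1.55% and 1.81%, and in 2.75% of all. TATAAA, the TATA box, was in 10.8%, 7.01% and 7.01%, and in 13.6% of all. For these 3 motifs the share in windows of genes higher in ileum lay above that of macrophage genes but below that of all windows. Those windows include genes that were not tested. Windows of the genes tested held the 3 motifs in 4.62%, 1.78% and 7.52%, below the shares of genes higher in ileum. TGACTCA, of AP-1, was in 6.73%, 3.55% and 3.27%, and in 5.2% of all. TGACGTCA, of CREB factors, was in 2.29%, 3.03% and 3.15%, and in 1.79% of all, and CACGTG, an E-box, in 7.43%, 10.8% and 10%, and in 7.15% of all. Windows of the genes tested held the HNF4 motif in 0.509%, that of PU.1 in 3.37%, the ETS site in 7.83% and that of AP-1 in 4.05%. The CREB motif was in 2.93% and the E-box in 9.7% of them. For the ETS, CREB and E-box motifs the share of macrophage genes was thus near that of the genes tested. These are shares of windows with a match and not of sites shown to be bound. To show what such windows look like, the 250 bases before the start are printed 5′ to 3′ for the most abundant protein-coding gene higher in its tissue that holds a motif, with the motif in capitals.
Muc13, a membrane mucin higher in ileum, with the HNF4 motif on the opposite strand (chr16:33794239-33794488, plus strand): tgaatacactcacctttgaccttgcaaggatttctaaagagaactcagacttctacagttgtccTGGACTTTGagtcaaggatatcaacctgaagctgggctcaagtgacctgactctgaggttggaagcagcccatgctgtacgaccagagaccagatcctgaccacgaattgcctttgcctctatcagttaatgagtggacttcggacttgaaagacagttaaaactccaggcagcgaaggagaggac
Epcam, higher in ileum, with the CDX2 motif on the opposite strand (chr17:87635729-87635978, plus strand): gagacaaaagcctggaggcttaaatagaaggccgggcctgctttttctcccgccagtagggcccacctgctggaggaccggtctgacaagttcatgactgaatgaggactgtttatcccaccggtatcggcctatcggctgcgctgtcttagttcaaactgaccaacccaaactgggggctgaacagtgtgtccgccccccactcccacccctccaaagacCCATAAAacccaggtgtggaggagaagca
Spp1, higher in macrophages, with the PU.1 motif (chr5:104434861-104435110, plus strand): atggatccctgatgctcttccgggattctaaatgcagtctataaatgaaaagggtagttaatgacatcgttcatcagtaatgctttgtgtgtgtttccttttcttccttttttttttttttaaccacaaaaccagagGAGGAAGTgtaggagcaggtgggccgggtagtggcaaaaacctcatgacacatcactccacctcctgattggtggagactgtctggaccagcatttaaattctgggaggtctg
The motif begins 186 bases before the start site in Muc13, 29 before it in Epcam and 113 before it in Spp1.

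Epithelial structure and ion transport completed the ileal side, on which 16.8% of all genes lay by TPM and 24.6% by the median of ratios. All 19 adhesion and keratin genes were higher in ileum (median 8.06), with Krt8, the keratin of simple epithelia, at 5655 ± 382 TPM and Lgals4, a gut lectin, at 3759 ± 111 TPM (SD, n = 5). Of 15 genes of ion and fluid transport 14 were higher in ileum, among them the guanylin peptides Guca2a and Guca2b (3121 and 3194 TPM) and their receptor Gucy2c (162 TPM). The chloride channel Cftr and the sodium-proton exchanger Slc9a3 were far lower, at 22.04 and 29.7 TPM.

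The levels of ileal genes in wild-type macrophage libraries were small, were found in all 5, and stood in nearly the same ratio to ileum for unlike genes. Over 96 genes of the epithelial lists at 100 TPM or more in ileum, the median level in macrophage libraries 1 to 5 was 0.107%, 0.127%, 0.317%, 0.359% and 0.343% of the mean ileum level. In library 4 the lower and upper quartiles of the genes were 0.314% and 0.436%. Knockout macrophage libraries 1 and 5 showed the same pattern, with medians of 0.278% and 0.138%. In knockout libraries 2, 3 and 4 the medians were 0%, 0% and 0.00146%, and Fabp6 was at 0.204, 0 and 0.236 TPM there. All knockout medians are over 93 of these genes, since Fcgbp, Muc13 and Reg3b, listed at 0 in knockout ileum, were left out. The differences given for ileal genes are differences from this level. Fabp2 and Apoa1, listed at 0 in ileum, were at 26.4, 19.1, 74.5, 87.2 and 81.3 TPM and at 27.6, 25.8, 82.3, 80.6 and 72.7 TPM in wild-type macrophages. Their means in knockout libraries 2 to 4 were 0.397 and 0.107 TPM. Over all 639 genes called higher in ileum at 100 TPM or more there, 286 (44.8%) lay between 0.5 and 2 times the overall median of 0.247% in macrophages, and 301 lay above 10 times that median. What this level comes from was not tested.

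**Figure D3:**
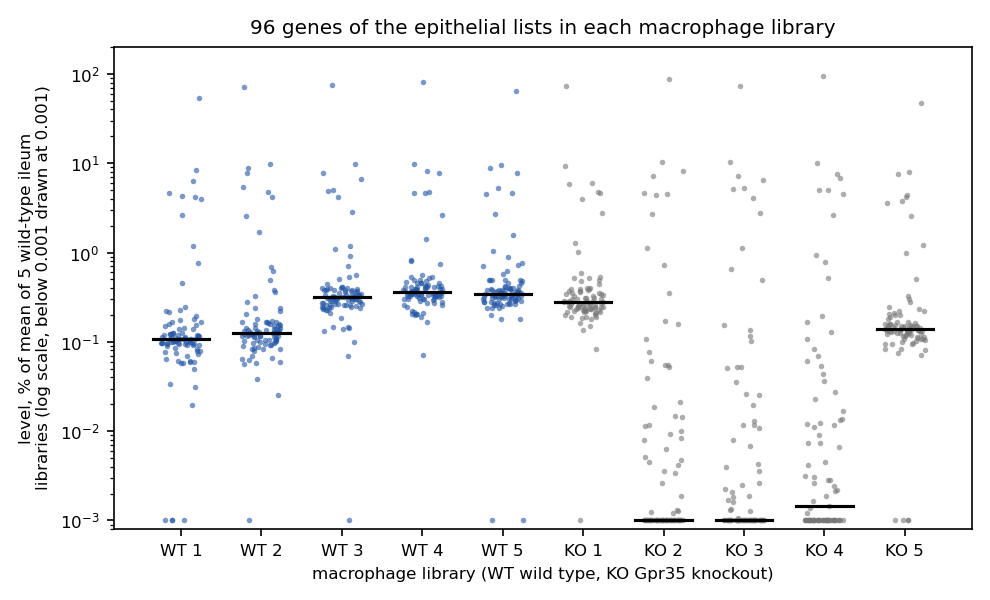
Level of 96 epithelial genes in each macrophage library as a percentage of their mean in the 5 wild-type ileum libraries (y axis, log scale, values below 0.001 drawn at 0.001), with libraries on the x axis and a bar at the median. Knockout libraries show 93 of the genes. The wild-type libraries and knockout libraries 1 and 5 form clouds with medians between 0.1% and 0.4%, and knockout libraries 2 to 4 do not. The same few genes lie above 1% in every library, joined in most by Dgat2 and in some by Pdzk1.

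Of the 96 genes, 8 were above 10 times the median of 0.247% on average in wild-type macrophages, and stayed at like levels in knockout libraries 2 to 4. They were Lyz1, Slc9a3r1, Khk (fructokinase), Ezr, Dgat1, which makes triglyceride, Apoc2, the cofactor of lipoprotein lipase, and the junction genes F11r and Tjp3. Khk was at 30.1 TPM in wild-type macrophages and 29.7 TPM in knockout libraries 2 to 4, Dgat1 at 21.98 and 22.4 TPM, and Apoc2 at 40.6 and 41.4 TPM. In the other direction macrophage genes in ileum had no common ratio. Over 45 genes of the macrophage lists at 100 TPM or more in macrophages the ileum level ranged from 0.0215% to 120% (median 1.48%).

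Macrophages were marked by receptors, lysosomes and a leukocyte cytoskeleton. Of 21 tested lineage genes 20 were higher in macrophages under both scalings, against 38.9% and 18.4% of all genes, with a median of -6.53. Adgre1 was at 0.554, 1.31, 0.335, 0.835 and 0.454 TPM in ileum and at 605, 940.5, 734, 892 and 823 TPM in macrophages (-9.42, standard error 0.20, adjusted p = 3.5e-12). Tyrobp (DAP12), the signalling adaptor of many myeloid receptors, was at 3433, 3739, 3654, 3886 and 3651 TPM and Mpeg1 (perforin-2), which attacks engulfed bacteria, at 1832, 2216, 2076, 2076 and 1897 TPM, both with no overlap between the tissues. The exception was Mertk, a receptor for the uptake of dying cells. It was at 40.8, 35.7, 37.3, 25.8 and 36.4 TPM in ileum and at 24.1, 49.8, 41.4, 47.0 and 32.4 TPM in macrophages, and it was within 2-fold by TPM and unresolved by the median of ratios. Mrc1 (CD206) and Cd163, receptors of resident macrophages, were higher in macrophages but low, at 28.8 and 2.61 TPM in macrophages and 0.612 and 0.0485 TPM in ileum.

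The tools of phagocytosis were nearly all on the macrophage side. Of 16 phagocytic and scavenger receptors 15 were higher in macrophages, and of 7 subunits of the NADPH oxidase, which makes superoxide in the phagosome, 6 were, under both scalings. Among all genes 38.9% were higher in macrophages by TPM and 18.4% by the median of ratios. Cybb, its catalytic chain, was at 1.65, 5.30, 2.75, 1.64 and 1.85 TPM in ileum and at 325, 397, 366, 380.1 and 396 TPM in macrophages, while the small membrane chain Cyba averaged 282 and 1872 TPM and the GTPase Rac1 417 and 348 TPM. All 18 genes of leukocyte actin and adhesion were higher in macrophages by TPM and 17 by the median of ratios, with Vim (vimentin) at 17.9 and 3109 TPM, Lcp1 (L-plastin) at 22.3 and 1149 TPM and the integrin chain Itgb2 at 6.78 and 710.1 TPM. Among ileum libraries the median deviation of all 3 lists was highest in library 2, where that of the actin list was 0.80 on the log2 scale and that of B and plasma cell genes 1.25.

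Lysosomal genes were expressed strongly in both tissues and more so in macrophages. Of 19 tested 17 were higher in macrophages by TPM and 12 by the median of ratios, against 38.9% and 18.4% of all genes. The median rank of the list was at percentile 85.8 of the genes tested in ileum and 98.7 in macrophages. Ctss (cathepsin S) was at 445, 355, 417, 378 and 349 TPM in ileum and at 5518, 7115, 5954, 6766 and 6061 TPM in macrophages, and the difference was -4.01 (standard error 0.10, adjusted p = 2.6e-11). Grn (progranulin) and Lipa (acid lipase) averaged 70.8 and 3096 TPM and 39.8 and 1677 TPM in ileum and macrophages. Acp5, the tartrate-resistant acid phosphatase, went the other way, at 199, 201, 168, 184 and 185 TPM in ileum and at 4.57, 9.45, 4.09, 8.46 and 8.01 TPM in macrophages.

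Of 23 tested microbial sensors and inflammasome genes 13 were higher in macrophages by TPM and 9 by the median of ratios, against 38.9% and 18.4% of all genes. Another 4 and 6 were higher in ileum, a share near the 16.8% and 24.6% of all genes. The Toll-like receptor for bacterial ribosomal RNA Tlr13 was at 0.194, 0.381, 0.347, 0.275 and 0.211 TPM in ileum and at 303, 334, 308, 292 and 286 TPM in macrophages, and Tlr4, the receptor for lipopolysaccharide, averaged 0.445 and 81.6 TPM. The ileal members were Nlrp6 and Nlrp9b, sensors of intestinal epithelium, Naip5, a sensor of flagellin, and the cytokine Il18. Nlrp6 was at 94.3, 99.9, 113, 122 and 144 TPM in ileum, against 0.295 TPM on average in macrophages, and Naip5 was at 128, 91.2, 94.9, 76.9 and 83.3 and 18.7, 20.8, 19.3, 20.6 and 19.0 TPM. Casp1, the protease that inflammasomes activate, averaged 199.8 and 167 TPM, within 2-fold by TPM and higher in ileum by the median of ratios. Il1b was near the limit of the filter in both (1.27 and 1.48 TPM).

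Genes of antigen presentation by MHC class II were higher in ileum than in macrophages, with the costimulatory ligands as exceptions. Of 11 genes 9 were higher in ileum and 2 in macrophages under both scalings. All genes gave 16.8% and 38.9% by TPM, and 24.6% and 18.4% by the median of ratios. H2-Ab1, a chain of the class II molecule, was at 2247, 2442, 2045, 1744 and 1059 TPM in ileum and at 62.0, 48.0, 52.9, 45.6 and 71.0 TPM in macrophages (5.04, standard error 0.21, adjusted p = 2.4e-09). Ciita, the transactivator of these genes, was at 13.3, 17.7, 10.97, 9.05 and 7.26 TPM and 0.745, 0.747, 0.754, 0.787 and 1.03 TPM, and library 5 was the lowest ileum library for both. The 2 genes higher in macrophages were the costimulatory ligands Cd80 and Cd86, at 0.273 and 11.3 TPM and 0.708 and 22.1 TPM. B cell and T cell genes were also higher in ileum, 9 of 10 and 12 of 14 by TPM, against 16.8% of all genes. Summed, the B cell list was at 121 to 457 TPM in ileum and 9.31 to 17.4 TPM in macrophages. Gzma, the granzyme of intraepithelial lymphocytes, averaged 318 TPM, and the joining chain of secreted antibody Jchain 112 TPM. Their part in the class II levels was not tested.

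Class I molecules differed less. B2m, the common light chain, was at 6157, 5082, 7438, 5769.5 and 4769.6 TPM in ileum and at 8591, 10186, 9270.2, 10664 and 9320.1 TPM in macrophages and was within 2-fold under both scalings. H2-K1, a heavy chain whose reads can be shared with its near copies, averaged 2600.2 and 2830.3 TPM and was within 2-fold by TPM and unresolved by the median of ratios. Interferon-stimulated genes were mixed, with 10 of 19 higher in macrophages and 1 higher in ileum by TPM and 5 and 2 by the median of ratios, where all genes gave 38.9% and 16.8%, and 18.4% and 24.6%. Isg15 was at 155, 142, 333, 148 and 149.8 TPM in ileum and at 198, 146, 199, 217 and 192 TPM in macrophages, Ifit1 averaged 61.4 and 61.5 TPM, and Zbp1, a sensor of nucleic acid, 102 and 99.9 TPM, all 3 within 2-fold by TPM and unresolved by the median of ratios. Ifit2 (3.45 and 88.6 TPM) and Bst2 (tetherin, 44.7 and 905 TPM) were higher in macrophages under both scalings, and Oasl1 (106 and 36.6 TPM) was higher in ileum.

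Whether genes that every cell needs were called within 2-fold depended on the scaling. Of 45 genes of cytosolic ribosomal proteins 7 were within 2-fold, 33 unresolved and 5 higher in macrophages by TPM, while 44 were within 2-fold by the median of ratios. Their median difference of -0.999 lay next to that of all genes, -0.90. Their ranks were alike, at percentile 98.3 in ileum and 99.2 in macrophages. Of 26 proteasome genes 16 were within 2-fold by TPM and 22 by the median of ratios, with percentiles 91.6 and 94.6, and Psmb4, a subunit of its core, was at 297, 288, 332, 360.1 and 336 TPM in ileum and at 391.8, 348, 352, 332 and 344 TPM in macrophages, with the groups overlapping. Of 22 genes of RNA polymerase II and the spliceosome 6 were within 2-fold by TPM and 20 by the median of ratios. These shares compare with 24.3% and 36.6% of all genes. By TPM the shared genes with the highest lower mean included B2m, Actb, Rpl41, H2-K1, Myl6, Pfn1 and Actg1, beside the short RNA rows Mir3064 and Mir3082. Actb was at 4833, 4735, 5980.1, 5109 and 4997 TPM in ileum and at 5435, 4260.3, 4567, 4156 and 5039 TPM in macrophages, and the groups overlapped. Psmb4, Actb and H2-K1 were within 2-fold by TPM only and B2m under both scalings.

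**Figure D4:**
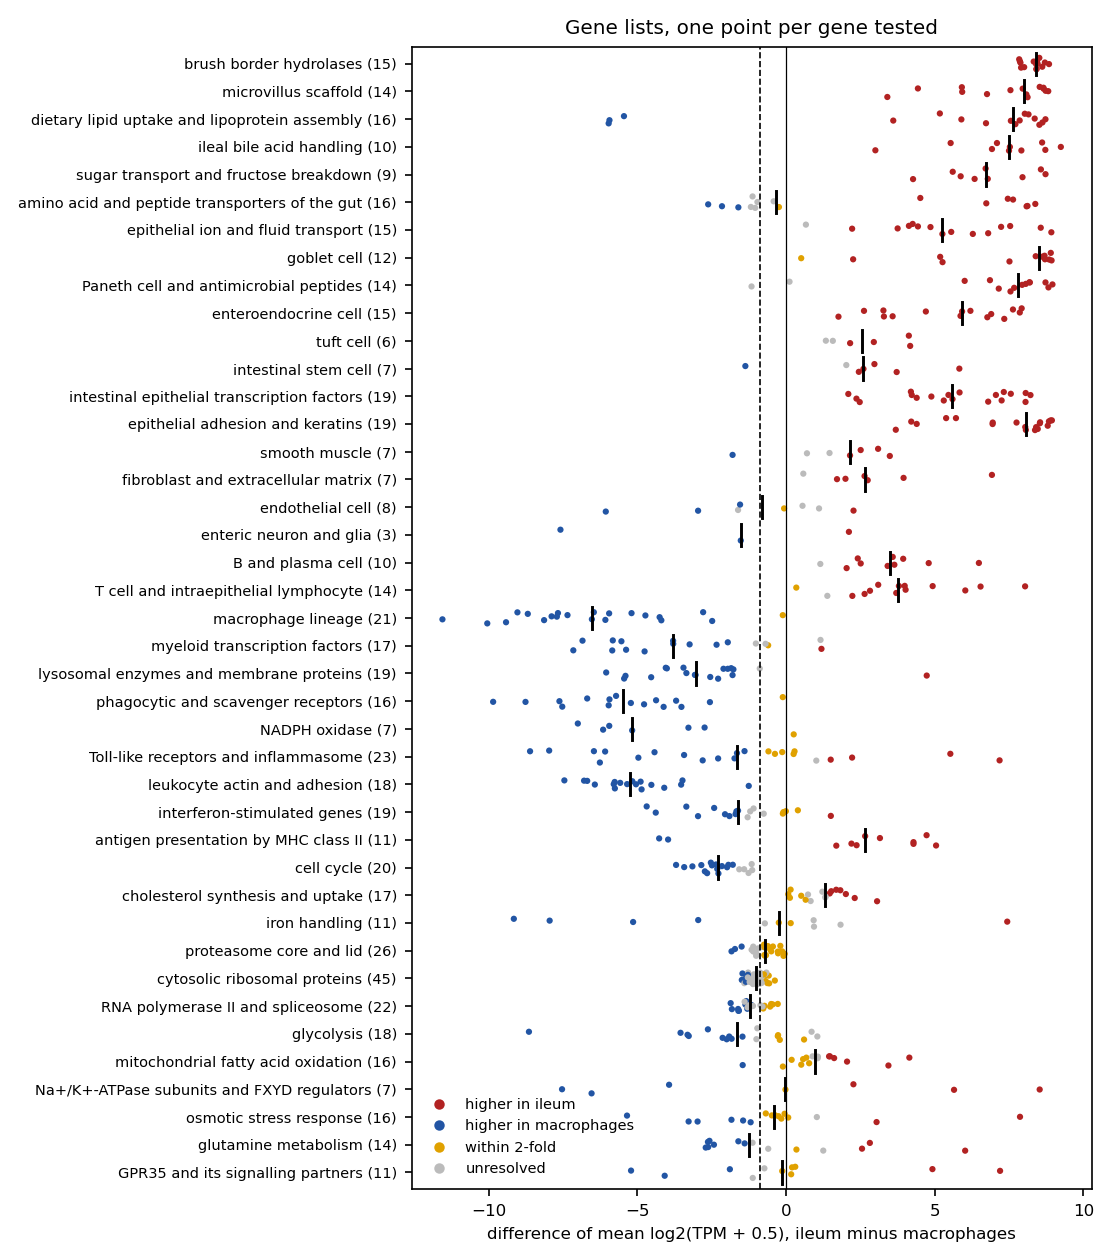
Difference of mean log2(TPM + 0.5), ileum minus macrophages (x axis), for each tested gene of 41 lists (rows, number of genes tested in brackets), coloured by call, with a bar at the list's median, a solid line at 0 and a dashed line at the median of all genes, -0.90. Lists of the epithelium lie to the right, macrophage lists to the left, and the ribosome, proteasome and RNA polymerase lists cluster near the dashed line.

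Energy and lipid metabolism differed between the tissues gene by gene. Of 18 glycolysis genes 10 were higher in macrophages by TPM and 5 by the median of ratios, which also put 3 higher in ileum, against 38.9%, 18.4% and 24.6% of all genes. Gapdh was at 1024, 764, 937, 828 and 833 TPM in ileum and at 1248, 929, 1079, 869 and 976 TPM in macrophages, overlapping, and was within 2-fold by TPM and unresolved by the median of ratios. The hexokinase Hk3 was at 322 TPM in macrophages against 0.305 TPM in ileum, while Ldha, which makes lactate, averaged 2169.9 and 1054 TPM and was unresolved by TPM and higher in ileum by the median of ratios. Fatty acid oxidation leaned to ileum, with 6 of 16 genes higher there by TPM and 13 by the median of ratios, against 16.8% and 24.6% of all genes. Hadh, a dehydrogenase of the pathway, was at 829, 545, 898, 686 and 684 TPM in ileum and at 69.1, 65.8, 66.6, 63.7 and 63.4 TPM in macrophages, and Cpt1a, which admits fatty acids to mitochondria, was the one gene higher in macrophages by TPM (44.9 and 123 TPM) and within 2-fold by the median of ratios. Cholesterol synthesis and uptake also leaned to ileum, with 7 of 17 by TPM and 14 by the median of ratios.

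Of 11 tested genes of iron handling 1 was higher in ileum and 4 in macrophages by TPM and 4 and 4 by the median of ratios, against 16.8% and 38.9%, and 24.6% and 18.4%, of all genes. Heph, the oxidase that helps iron leave enterocytes, was at 197, 153, 197, 147 and 179 TPM in ileum and 0.547 TPM on average in macrophages. Hmox1, which frees iron from heme, was at 1.77, 3.57, 1.04, 1.13 and 1.34 TPM in ileum and at 1461, 1291, 1395, 1132 and 868 TPM in macrophages (-9.16, standard error 0.25, adjusted p = 1.9e-11). Slc48a1, a heme transporter, Slc40a1 (ferroportin), the iron exporter, and Slc11a1, a metal pump of phagosomes, were also higher in macrophages under both scalings, at 6.61 and 247, 20.4 and 149 and 0.540 and 259 TPM in ileum and macrophages. Slc11a2 (DMT1), which takes up iron in the gut, averaged 34.7 and 30.8 TPM and was within 2-fold by TPM and unresolved by the median of ratios.

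Of 20 cell cycle genes 15 were higher in macrophages by TPM but 6 by the median of ratios, against 38.9% and 18.4% of all genes, and none was higher in ileum under either scaling. Pcna, the clamp of DNA polymerase, was at 66.4, 91.8, 76.5, 95.9 and 98.8 TPM in ileum and at 1550.1, 977, 1139, 870.3 and 1129 TPM in macrophages (-3.70, standard error 0.16, adjusted p = 6.5e-09). Mki67, a marker of dividing cells, averaged 6.01 and 28.5 TPM and was higher in macrophages by TPM and unresolved by the median of ratios. Among ileum libraries the median deviation of the list was lowest in library 1 (-0.86) and highest in library 5 (0.68), and these libraries were also the lowest and the highest for the Paneth list (-1.56 and 0.98).

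The receptor that the series is about was low in both tissues. Gpr35, on chromosome 1 from 92950865 to 92986391, was at 4.07, 5.52, 4.97, 4.47 and 6.96 TPM in ileum and at 5.07, 5.47, 5.16, 5.99 and 6.73 TPM in macrophages. The groups overlapped, and the difference was -0.13 (95% confidence interval -0.44 to 0.18), within 2-fold by TPM and unresolved by the median of ratios (0.76). It ranked at percentile 36.7 of the genes tested in ileum and 28.6 in macrophages. Among its signalling partners the G protein subunit Gnai2 averaged 256 and 952 TPM, Gna12 6.25 and 113 TPM and Arrb2 (β-arrestin 2) 7.67 and 292 TPM, all higher in macrophages by TPM, with Gnai2 unresolved by the median of ratios. Src, a kinase, and Ido1, which starts the breakdown of tryptophan towards the kynurenines, were higher in ileum under both scalings, at 94.5 and 2.61 and 123 and 0.333 TPM. Of 11 genes of the list, Gpr35 included, 2 were higher in ileum, 3 in macrophages and 4 within 2-fold by TPM, and 3, 2 and 2 by the median of ratios. All genes gave 16.8%, 38.9% and 24.3%, and 24.6%, 18.4% and 36.6%, so that the list did not stand apart from them.

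Of 7 tested genes of the sodium-potassium pump, an enzyme the study examined beside GPR35, and of its FXYD regulators, 3 were higher in ileum and 3 in macrophages under both scalings. All genes gave 16.8% and 38.9% by TPM, and 24.6% and 18.4% by the median of ratios, so that by TPM the macrophage count was near the share of all genes. The β chain Atp1b1 was at 1335, 1192, 1742, 1474 and 1736 TPM in ileum and at 2.00, 1.42, 5.30, 5.44 and 5.82 TPM in macrophages, and Atp1b3, another β chain, at 19.4, 26.0, 19.7, 23.0 and 24.3 TPM and 346, 365, 363, 340.2 and 334 TPM. Every library of ileum had more Atp1b1 than Atp1b3 and every library of macrophages the reverse. Of the FXYD regulators Fxyd3 averaged 45.9 and 0.426 TPM and Fxyd5 (dysadherin) 11.9 and 2206 TPM.

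Of 16 tested genes of the response to osmotic stress 7 were within 2-fold, 6 higher in macrophages and 2 higher in ileum by TPM, and 7, 3 and 3 by the median of ratios. All genes gave 24.3%, 38.9% and 16.8% by TPM, and 36.6%, 18.4% and 24.6% by the median of ratios. The shares higher in either tissue lay close to those of all genes, and the share within 2-fold lay above. Nfat5, the factor that senses tonicity, was at 5.98, 7.82, 6.96, 4.25 and 5.604 TPM in ileum and at 8.84, 10.4, 10.4, 9.94 and 10.3 TPM in macrophages, within 2-fold under both. The p38 kinases were not alike. Mapk14 (p38α) was at 35.4, 37.5, 35.5, 31.8 and 35.1 TPM in ileum and at 84.7, 108, 91.3, 98.4 and 102 TPM in macrophages, higher in macrophages by TPM and within 2-fold by the median of ratios, and Mapk13 (p38δ) averaged 439 and 1.47 TPM. Slc6a6, the taurine transporter, and Akr1b3, aldose reductase, which makes the osmolyte sorbitol, were higher in macrophages under both scalings (48.5 and 383 and 1.65 and 61.9 TPM). In glutamine metabolism Gpt, an alanine aminotransferase, averaged 358 and 4.92 TPM and Glul, glutamine synthetase, 29.8 and 182 TPM, with Gpt higher in ileum and Glul higher in macrophages under both scalings. Slc6a14, an amino acid transporter, was at 1.31, 39.7, 0.442, 4.84 and 2.14 TPM in ileum, high in library 2 alone, and did not pass the filter by TPM.

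Ratios between related genes within a library do not depend on the scaling but for the 0.5 added, and 28 of 30 chosen pairs could be compared, Lyz1 and Lyz2 and Fabp2 and Fabp5 having a member listed at 0. The pairs were chosen as counterparts in the tissues with earlier results known, and most genes differ between the tissues, so that their counts are a description with no test. The tissues did not overlap in any of the 28. For 20 pairs the leading member changed. The largest change was that of the intermediate filaments, with Krt8 over Vim at 8.33 ± 0.51 in ileum and -7.97 ± 0.91 in macrophages on the log2 scale. The peptide carriers Slc15a1 over Slc15a3 were at 8.42 ± 0.75 and -6.75 ± 0.73, the ETS factors Elf3 over Spi1 at 6.24 ± 0.59 and -8.67 ± 0.48, and the plastins Pls1 over Lcp1 at 5.48 ± 0.70 and -8.93 ± 0.73. Among enzymes of sugar breakdown Hk2 over Hk3 was at 4.47 ± 0.35 and -3.90 ± 0.099. Pklr over Pkm was at -1.02 ± 0.24 and -10.80 ± 0.72, so that Pkm led in both tissues. The smallest change was that of Dgat2 over Dgat1, at -2.09 ± 0.14 in ileum and -2.81 ± 0.24 in macrophages. Within macrophages Krt8 over Vim was lower in libraries 1 and 2 than in the other 3, as was the level of ileal genes. Krt8, Slc15a1, Elf3, Pls1 and Pklr averaged 13.3, 1.81, 0.889, 2.07 and 0.593 TPM in wild-type macrophages. In knockout macrophage libraries 2 to 4 they averaged 0.0130, 0.155, 0.0259, 0.0189 and 0 TPM. The macrophage ratios of these pairs are thus ratios of that level of ileal genes.

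**Figure D5:**
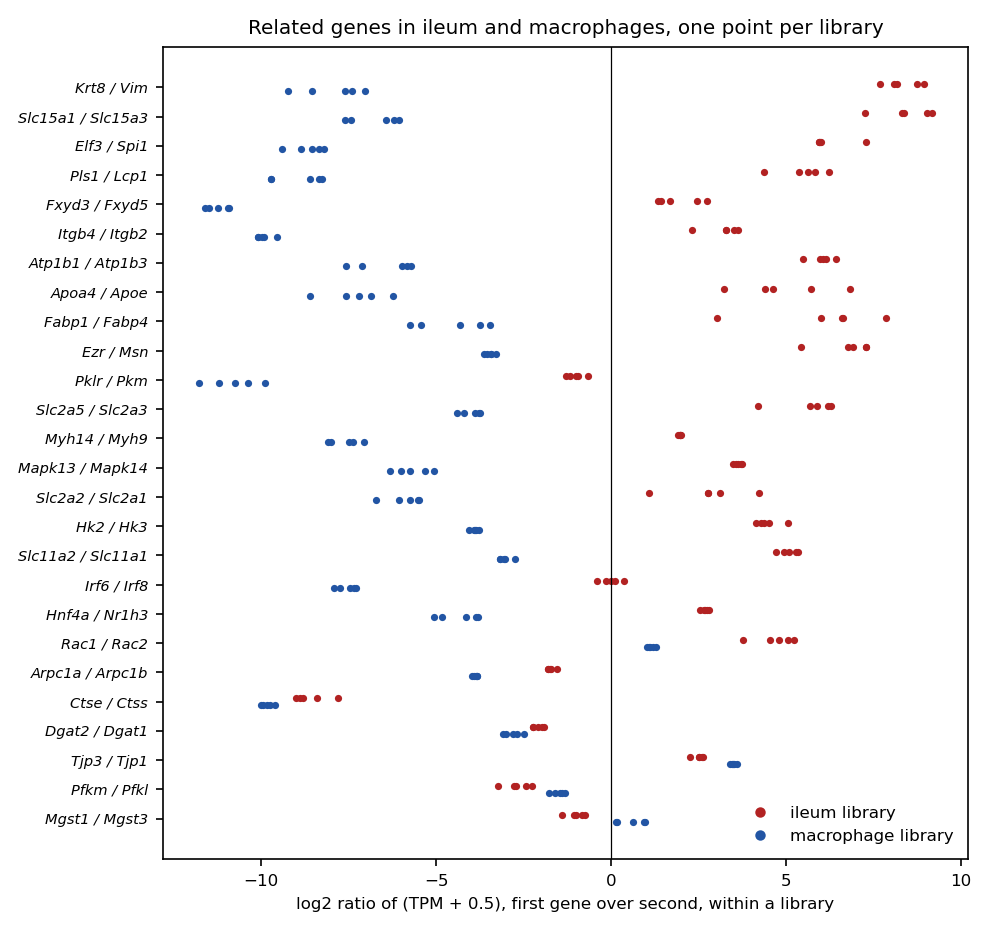
Log2 ratio of TPM + 0.5 within a library (x axis) for 26 of the 28 pairs of related genes (rows, ordered by the difference), with one point per ileum library (red) and macrophage library (blue). The tissues do not overlap in any pair drawn, and for 18 of them they lie on opposite sides of 0.

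The most abundant genes took a larger share of the total in ileum. The 10 most abundant genes took 15.7 ± 1.61% of the total in ileum and 7.39 ± 0.648% in macrophages (SD, n = 5). The 100 most abundant took 37.4 ± 1.22% and 27.4 ± 0.557%. The tissues did not overlap (exact permutation test, two-sided p = 0.0079, the smallest possible). Eef1a1 was left out of these shares. Other rows listed at 0 in 1 tissue count as 0 there and at their level in the other tissue. In macrophages these include Fth1, Ftl1, Ctsb, Ctsd, Psap and Lyz2. How the shares would differ with true levels of these genes is not known. The number of genes at 1 TPM or more overlapped, 10966 to 11936 in ileum and 11333 to 11519 in macrophages (exact permutation p = 0.57). After Fabp6, Reg3b, Zg16 and Tff3 the most abundant genes of ileum were Reg3g, Crip1, Selenop, Spink1, Smim24 and B2m. In macrophages they were Tmsb4x, which binds free actin (11472, 11694, 11312, 11702 and 12327 TPM), Tpt1, B2m, Lgals3 (galectin-3, 8852, 7611, 8220.2, 7439 and 7087 TPM), Ctss, S100a4, Actb and Rplp1, and the short RNA rows Snord37 and Mir3064. Of the 100 most abundant genes of each tissue 22 were common to both, mostly genes of ribosomes, actin and class I molecules.

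The genes that varied most between libraries were short RNAs, whose FPKM is divided by a very short length. By SD of log2 these were Scarna17, Snord49a, Scarna2, Snord104 and Mir3960 in ileum and Scarna17, Scarna2, Snord47, Snord4a and Mir1892 in macrophages. Scarna2, for example, was at 2431, 7322, 1175, 0 and 2653 TPM in ileum and at 0, 0, 1685, 1729 and 2415 TPM in macrophages. Among protein-coding genes, which were looked at after these values were seen, Pla2g4c, a cytosolic phospholipase, varied most in ileum, at 586, 3.39, 1.82, 4.38 and 4.58 TPM, with library 1 alone high. In macrophages Defa24 varied most, at 1.79, 7.42, 12.9, 20.2 and 20.1 TPM, with libraries 4 and 5 the highest. It is one of the epithelial genes whose low level in macrophage libraries is described above. Its values there were 0.0336% to 0.381% of its mean ileum level, and it was at 0 TPM in knockout macrophage libraries 2 and 3.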

How the data were processed

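The study sequenced poly(A) RNA from stranded libraries (RNeasy extraction, TruSeq stranded mRNA kit, single-end reads). The authors deposited FPKM in 1 table per tissue, each with 5 wild-type and 5 knockout columns and 23361 rows named by gene. The genome build was GRCm38 per the submitters' processing notes. Which aligner and counter were used is not given in the sources used here, nor is a test. Relative depth was read from the steps of low FPKM values. Row names were in capitals, 27 rows of the ileum table had no partner (names changed to dates among them), and 99.4% of the names were matched to GENCODE M21 or RefSeq, which gave symbols and coordinates.

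FPKM of the rows common to both tables were scaled to 1 common sum per library (TPM), 0.5 was added and log2 taken. The test, for genes at 0.5 TPM or more in 5 libraries, was limma-treat (limma 3.58.1, R 4.3.3, trend and robust spread, bound 1 on the log2 scale, Benjamini-Hochberg adjusted p under 0.05), and the other steps used Python 3.11.15, numpy 2.4.6 and pandas 2.3.3. Wild-type samples only entered the main fit, with no covariate. The test was tested on simulated data. Rows listed at 0 in all 5 libraries of a tissue did not enter the test. This choice, and the alternative with protein-coding genes only, were made after seeing the data. The members, lists, pairs and motifs were chosen with earlier results of these data known.

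The text names, of each list, up to 4 members with the highest mean in either tissue and its defining members, the 10 largest differences each way among genes called and without overlap, the 10 most abundant genes of each tissue, the 10 genes within 2-fold with the highest lower mean, the 5 largest SDs per tissue at 5 TPM or more, the chosen pairs, and genes of the study's question (Gpr35, Nfat5, Mapk14, Atp1b1 and Slc6a14 among them). Some genes within the rule are not reported here. Named outside this rule, after their values were seen, were Acp5, Akr1b3, Anpep, Apoa1, Apob, Apoc2, Camp, Cd163, Cd80, Cd86, Cftr, Ciita, Cpt1a, Creb3l1, Ctsb, Ctsd, Elane, F11r, Fgf15, Gna12, Heph, Ifit1, Ifit2, Il18, Il1b, Lipa, Mertk, Mki67, Mpo, Mrc1, Mttp, Naip5, Nlrp9b, Npc1l1, Nr1h4, Oasl1, Pla2g4c, Psap, Scarb1, Slc38a1, Slc38a2, Slc40a1, Slc48a1, Slc7a5, Slc9a3, Src, Tlr4 and Zbp1. Alternatives were other scalings, pseudocounts, filters and spreads, a block for the replicate number, knockout libraries, and leaving out each library.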

Additional observations from a re-analysis of the deposited data

Results flagged for a closer look

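In each tissue the 5 libraries were checked, for each gene named, for 1 library whose gap to the nearest other exceeded 0.71 of the whole range (Dixon's test). Of 392 groups of 5 tested 29 passed (7.4%), where chance flags about 1 in 20 independent groups of normally distributed values. The values checked were TPM without logarithm, some near 0, and the genes are not independent. That rate therefore need not hold here. Pla2g4c and Mir1892 are among the genes that were named for their large spread. The gap as a share of the range stands in brackets. Ileum library 1 was the highest for Pla2g4c (0.995), Slc11a1 (0.742) and Trpm5 (0.754). Ileum library 2 was the highest for Adam8 (0.848), Arrb2 (0.73), C3ar1 (0.714), Cd86 (0.753), Clec4d (0.819), Hk2 (0.86), Hmox1 (0.712), Ifit2 (0.81), Itgb2 (0.722), Lpl (0.772), Pecam1 (0.818), Slc6a14 (0.888) and Trem2 (0.942). Ileum library 3 was the highest for Cd36 (0.718), Fabp1 (0.8), Isg15 (0.931) and Zbp1 (0.725). Ileum library 3 was the lowest for Fabp6 (0.834) and Slc51a (0.743). Ileum library 4 was the highest for Myl6 (0.784). Macrophage library 3 was the highest for Mir1892 (0.829). Macrophage library 3 was the lowest for Actg2 (0.824), at 0 TPM where the highest library was at 0.0675 TPM. Macrophage library 4 was the highest for Ifit1 (0.751). Macrophage library 5 was the highest for Ciita (0.853), Mpo (0.72) and Trpm5 (0.738), the last at only 0.0668 TPM. Actg2 and Trpm5 thus lay far below 0.5 TPM in macrophages, where such gaps say little. In ileum most libraries were near or below 0.5 TPM for Adam8, C3ar1, Cd86, Clec4d, Slc11a1 and Trem2.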

How the results depend on the processing

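By TPM 2201 genes were higher in ileum, 5080 higher in macrophages and 3173 within 2-fold. The count higher in macrophages was 3379 with upper quartile scaling, 2406 with the median of ratios and 3286 after quantile normalization, and the count within 2-fold 4794 with the median of ratios and 5819 with no filter on low values. Tested with limma against no difference, 3346 genes were higher in ileum and 8578 in macrophages. The share of calls higher in ileum was 30.2% by TPM, 44.1% by upper quartile, 57.2% by the median of ratios, 44.3% after quantile normalization, 34.7% with no rescaling and 36.7% with totals that left out the 100 most abundant genes. Leaving out 1 library at a time gave 2142 to 2225 genes higher in ileum, 4919 to 5256 higher in macrophages and 3042 to 3313 within 2-fold, 28 pairs and 9.73 to 10.4 percentage points for the share of the 100 most abundant genes. In knockout libraries of both tissues 2216, 5274 and 3531 genes had these calls, and 1854, 5168 and 3438 without knockout macrophage libraries 1 and 5. No named gene changed direction past the test in any alternative. Deviations of samples with the same number correlated at -0.09 to 0.05, and the best match was never the same number. Different tissues of 1 animal need not deviate alike, so this does not show whether replicate numbers pair animals. With a replicate block 2181 genes were higher in ileum, 4968 in macrophages and 3069 within 2-fold, and among named genes the call of Nr1h3 was lost (adjusted p = 0.056). Depth limits genes near 0.5 TPM, above all in ileum.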

Other observations

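Some genes of lists for other cells were present in macrophage libraries. Uchl1, a deubiquitinase best known from neurons, was at 0.335, 0.962, 0.432, 0.351 and 0.488 TPM in ileum and at 226, 178, 188, 181 and 184 TPM in macrophages. Vwf, the clotting factor of endothelium and platelets, averaged 0.0959 and 39.5 TPM. The groups did not overlap for either, while Pecam1 averaged 0.803 TPM in macrophages.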
